A study of Homo sapiens with 30 samples.

Results

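The abundance of mRNA 5' ends before any antibody step was compared between MEL624 cells with a knockout (KO) of PCIF1 and control cells. MEL624 is a human melanoma cell line, and the control was the wild-type line given a random single guide RNA. The comparison uses 6 input libraries, 3 from control and 3 from KO cells, which are 6 of the 12 second-stage libraries in the table and of 30 samples in the series. Each input was made by the m6Am-Exo-Seq procedure from 200 ug of total RNA after repeated mRNA purification. The change of a gene is the mean of the 3 KO inputs minus the mean of the 3 control inputs on the log2 scale of CPM (read counts scaled to a common library total), for the region around its transcription start. It was measured for 16009 genes. The design text calls the 3 libraries of a group biological replicates. It describes the KO of the first stage as 1 clonal line and does not say whether the second-stage KO replicates share that clone, so that the KO and the clone cannot be told apart, and p-values measure only the spread between these samples. In bulk samples, fewer cells of a kind and less RNA per cell cannot be told apart either.

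PCIF1 is the methyltransferase that adds an N6-methyl group to an adenosine that is the first transcribed base of a capped mRNA. Such an adenosine already carries a methyl group on its ribose, and the product is called m6Am. In m6Am-Exo-Seq, RNA is fragmented and an exonuclease digests fragments with a free 5' end, while the cap protects the true start. The input thus reads mainly protected 5' ends of each gene, and an anti-m6A antibody applied afterwards reads which of them are methylated. Melanoma cells can lie anywhere between a pigmented state driven by the transcription factor MITF and a dedifferentiated, mesenchymal-like state with high AXL and low pigment genes.

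The inputs held 3232562 to 4094070 reads in control and 2836120 to 3544669 reads in KO libraries over the listed genes, and 215 to 379 genes were at 0 reads in a library. No pair of libraries within a group agreed within sampling noise. The KO input numbered 3 differed most from the others of its group, with a chi-square per degree of freedom of 4.88 and 4.45 against them, where the other pairs lay between 1.99 and 2.95. It also had the lowest share of ribosomal protein mRNA reads, at 7.58% against 9.06% and 8.98%.

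Of the 16009 genes, 1798 differed between the genotypes at a limma adjusted p under 0.05 (11.2%), 890 higher and 908 lower in KO inputs. The change was at least 2-fold for 304 of the higher and 326 of the lower genes, and the median size among called genes was 0.73 on the log2 scale. Over all genes the median change was -0.02, with quartiles at -0.29 and 0.25. The 3 KO and 3 control libraries did not overlap for 5080 genes (31.7%). The split depends on the scaling: when each library was centred on its ribosomal protein mRNAs, 343 genes were higher and 659 lower, and when each library was centred on its median, 1014 were higher and 767 lower.

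**Figure D1:**
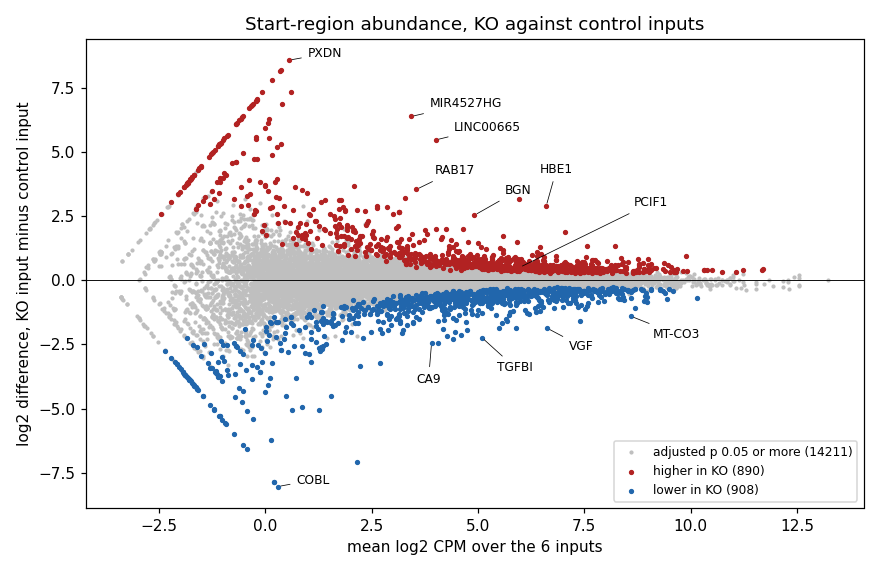
Change of each of 16009 genes (KO input minus control input, log2) against its mean log2 CPM over the 6 inputs, with the 890 higher genes in red, the 908 lower genes in blue and the other 14211 in grey. Most called genes with many reads lie close to the line at 0, while PXDN and COBL, at opposite ends, had no reads at all in one genotype, and the diagonal edges are genes at 0 reads in a whole group.

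In the gene PCIF1 (ENSG00000100982), at 45934683 to 45948023 of chromosome 20 (hg38), control inputs read 57.8, 52.5 and 49.4 CPM and KO inputs 70.4, 78.0 and 77.1 CPM. All 3 KO libraries lay above all 3 control libraries. The change of 0.50 ± 0.14 (log2, standard error) had a limma adjusted p of 0.0229. Fragments from the start of the gene can lie outside the part that was edited, and another gene (ENSG00000285796) lies within 200 bases of it, so that the values are no check of the labels. The call was lost when libraries were centred on ribosomal protein mRNAs (limma adjusted p = 0.252), in the fit without trend (limma adjusted p = 0.0741) and without control input 2 or 3 or KO input 2 or 3 (limma adjusted p = 0.0777, 0.101, 0.0782 and 0.0681).

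The label was checked against cell type markers. Among 9 melanocyte and melanoma markers only MITF was listed, at 8.25 to 14.05 CPM in control and 9.17 to 10.7 CPM in KO inputs. SOX10, PMEL, MLANA, TYR, DCT, TYRP1, S100B and S100A1 had no row in the table, so that most of the pigmented melanocyte program was not read here. The change of MITF was 0.01 ± 0.27 and its sign turned in several alternative fits. Of 11 keratinocyte and epithelial markers 3 were listed (KRT8, KRT18 and DSP), with a summed level of 899 to 1096 CPM in control and 668 to 970 CPM in KO inputs. KRT18 alone gave 984, 809 and 801 CPM in control and 848, 867 and 584 CPM in KO inputs. KRT5, KRT14, EPCAM and CDH1 were not listed. Of 8 leukocyte markers 3 were listed (CD68, CORO1A and LCP1), 1 of 8 fibroblast markers (PDGFRB) and 0 of 6 endothelial markers. The leukocyte sum was 146 to 154 CPM in control and 94.1 to 146 CPM in KO inputs, and LCP1 alone was called, higher, from 0, 1 and 0 reads against 4, 6 and 2. PDGFRB, at 12.9 to 17.3 CPM in control and 5.597 to 11.7 CPM in KO inputs, was called lower. Among 7 markers of the embryonic kidney line HEK293, 4 were listed, with summed levels of 26.9 to 31.5 CPM in control and 23.3 to 32.8 CPM in KO inputs. PAX8 (13, 18 and 13 reads against 2, 2 and 2) and LHX1 (7, 17 and 16 against 1, 1 and 3) were lower in KO inputs and NEFL (5, 3 and 3 against 15, 8 and 14) was higher, all from few reads. The calls of LCP1, PDGFRB, PAX8 and NEFL were lost in at least 1 alternative fit. The part of these markers in the results below was not tested.

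Since PCIF1 acts on starts with an A, the starts of 8 genes with large changes are shown. Each line gives 20 bases upstream and 10 bases from the start of the canonical GENCODE 44 transcript in hg38, 5' to 3' on the gene's strand, with the first transcribed base in capitals. The first 4 genes were higher and the last 4 lower in KO inputs.
HBE1 (minus strand, chr11:5269936-5269965): ccagacagagaggcagcagcAcatatctgc
LINC00665 (minus strand, chr19:36321315-36321344): tcccgccacagtgaggagacCtgaagacca
NUP210 (minus strand, chr3:13420313-13420342): gccccgcccccgcgctcatcAcctgctggc
BGN (plus strand, chrX:153494960-153494989): cgcccgccgcctctgtctccCtctctccac
VGF (minus strand, chr7:101165560-101165589): tggaggcgcgggcgctgtccAgcgtgctga
S100A4 (minus strand, chr1:153545797-153545826): cagacctctgggccgtccccAttcttcccc
CA9 (plus strand, chr9:35673908-35673937): tgcacgtacagcccgtacacAccgtgtgct
TGFBI (plus strand, chr5:136028968-136028997): gcccgggcggcggaggcgctCtcacttccc
Starts with A stood on both sides. Among the 15 largest changes in each direction, 7 of the higher and 8 of the lower genes start with A. Over all matched genes 6961 of 15903 do.

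These 30 genes were taken among 1171 named protein-coding or long non-coding genes that were called, had a mean log2 CPM of at least 3 over the inputs and did not overlap between the groups. All 30 were called in the same direction in the immunoprecipitations (IPs), as were 59.6% of all genes called in the inputs. In the IPs 49.0% of all genes were called in either direction. The 30 were chosen for large changes, and 90.5% of called genes with a change of at least 2-fold had the same sign in the IPs. The largest increase was that of MIR4527HG, a microRNA host RNA on chromosome 18, with 1.42, 0.763 and 1.53 CPM in control and 109, 105 and 82.3 CPM in KO inputs (6.37 ± 0.25, adjusted p = 5.04e-12). In reads these are 5, 3 and 5 against 381, 389 and 253, so that the control level is close to nothing. The long non-coding RNA LINC00665 rose from 2.23, 3.51 and 1.83 CPM to 106, 110 and 105 CPM (5.46 ± 0.28, adjusted p = 2.10e-10). RAB17, a GTPase of epithelial membrane traffic, rose from 3.84, 4.43 and 2.41 CPM to 45.1, 39.0 and 36.1 CPM. NDN, an imprinted gene for the growth suppressor necdin, rose from 3.03, 3.74 and 2.99 CPM to 30.5, 31.5 and 26.4 CPM. Of the 30 genes, MIR4527HG, RAB17 and NDN lie in raised and LANCL1 in lowered chromosome stretches described below. The rule took only genes whose KO and control values did not overlap. A gap between the genotypes was thus fixed in advance.

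Both haemoglobin genes of the table were higher in KO inputs. HBE1, the embryonic epsilon globin, gave 37.4, 37.9 and 32.5 CPM in control and 265, 289 and 241 CPM in KO inputs (2.88 ± 0.12, adjusted p = 5.04e-12). HBG2, a fetal gamma globin, gave 23.7, 22.3 and 17.3 CPM against 196, 202 and 164 CPM. Their gene models overlap each other and a neighbouring unnamed gene, and HBG2 has a near-identical copy, so that the division of reads between them is uncertain. BGN, the matrix proteoglycan biglycan, rose from 12.7, 15.2 and 10.3 CPM to 81.3, 94.0 and 50.1 CPM (2.53 ± 0.20). MIA, a melanoma-secreted inhibitor of adhesion, rose by 2.02 ± 0.23 and DKK3, a secreted dickkopf protein, by 1.996 ± 0.25. The carnitine acetyltransferase gene CRAT (1.99), the nuclear pore gene NUP210 (1.99), the casein kinase-binding gene DBNDD2 (2.10) and PLAC8 (1.97) rose by similar amounts. NUP210 went from 14.9, 12.7 and 10.3 CPM to 59.5, 45.8 and 44.9 CPM. NOX5, a calcium-activated NADPH oxidase, and SPESP1 (2.66 and 2.64) overlap and gave nearly identical values, so that they count as 1 signal.

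The largest decrease by the same rule was that of CA9, a hypoxia-induced carbonic anhydrase of the cell surface, which fell from 31.8, 37.9 and 35.97 CPM to 4.38, 7.11 and 8.52 CPM (-2.45 ± 0.24, adjusted p = 8.01e-07). TGFBI, a matrix protein induced by TGF-beta, fell from 75.9, 74.3 and 72.2 CPM to 15.6, 18.2 and 13.7 CPM (-2.24 ± 0.14, adjusted p = 4.71e-09). S100A4, a calcium-binding protein linked to cell motility, fell from 50.3, 49.8 and 50.9 CPM to 12.7, 14.1 and 8.52 CPM. LAMB3, a chain of laminin 332, went from 59.2, 48.4 and 50.9 CPM to 16.7, 16.6 and 9.50 CPM. In each case the highest KO library was below the lowest control library by at least 2-fold, in genes chosen for large changes without overlap. The microfibril-associated gene ADAMTSL4 (-2.04) and the adhesion receptor gene ADGRG1 (-1.88) fell as well.

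VGF, a precursor of secreted neuropeptides, gave 194, 188 and 186 CPM in control and 52.0, 52.6 and 50.7 CPM in KO inputs, and had the smallest standard error of the 30 (-1.87 ± 0.09, adjusted p = 3.93e-11). IL18, a cytokine of the interleukin-1 family, fell from 118, 110 and 117 CPM to 34.8, 31.7 and 27.7 CPM. NBDY, which encodes a microprotein of the decapping machinery, fell from 87.1, 86.7 and 84.1 CPM to 25.3, 24.7 and 20.9 CPM. The sphingosine kinase gene SPHK1 (-2.16), SFN for the 14-3-3 sigma protein (-2.03), the glutathione-binding gene LANCL1 (-1.95), the F-box gene FBXL7 (-1.76, a call lost in the fit without trend) and the AP-2 gamma gene TFAP2C (-1.67) fell too. The long non-coding RNA COSMOC (-2.43) starts beside MOCOS on the other strand. Just past the 15th place stood LINC01029 (1.88) and ELP2 (-1.67). The starts of LINC00665, BGN, CRAT, CA9, SPHK1, IL18, MIA, DBNDD2, ADGRG1 and ADAMTSL4 also lie within 200 bases of, or inside, another gene, which makes their reads uncertain where strand was not used. The same limit holds for 8013 of the 15903 matched genes. Among those named below are PAX3, TFAP2A, TGFB1, ID1, CDKN1A, TYMS and RNMT.

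**Figure D2:**
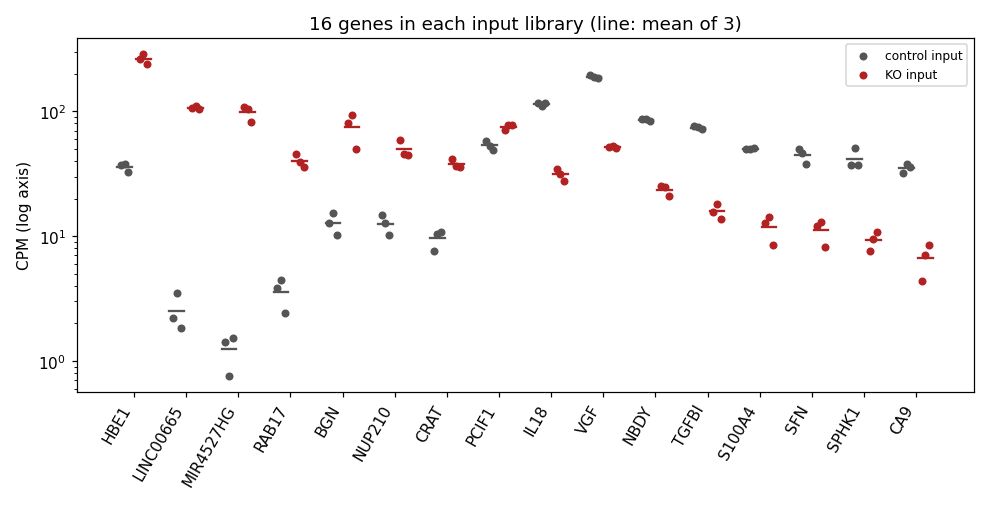
CPM of 16 genes on a log axis in each of the 3 control inputs (grey) and 3 KO inputs (red), with lines at the means. Apart from PCIF1, the genes shown come from those chosen for large changes without overlap, so that a gap between grey and red points was fixed in advance. Within a genotype the points of VGF lie close together, while the KO points of BGN and CA9 spread more.

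Some starts were near zero in one genotype. By a rule of at most 3 reads in every library of one genotype and at least 20 in every library of the other, 19 genes were read in KO inputs alone (0.119% of genes) and 9 in control inputs alone (0.0562%). Of the 19, 17 are protein-coding and 13 had 0 reads in all 3 control inputs. PXDN, a peroxidase that crosslinks collagen IV, had 0, 0 and 0 reads in control and 104, 105 and 85 in KO inputs, at least 110-fold higher against a floor of 3 reads over the group. TP73-AS1 (73, 98 and 56 reads in KO inputs), GLB1L2 (78, 83 and 64) and CLEC11A, a secreted growth factor (59, 62 and 49), also had no control reads. Their KO level was at least 84.9, 84.2 and 63.6 times higher. SH3GL2, the endocytic adaptor endophilin A1, had 1 read in all control inputs and 57, 75 and 66 in KO inputs, a ratio of 222 with an exact 95% interval of 39.4 to 8820. CAVIN2, a caveolar coat protein, had 1 read against 47, 46 and 51, a ratio of 162 (28.6 to 6426). MGMT, which removes alkyl groups from guanine in DNA, went from 0 reads to 36, 42 and 25, at least 38.5-fold higher. BEX2 (at least 46.8-fold) and LRCH2 (at least 37.0-fold) on the X chromosome and ENSG00000268119 (at least 38.9-fold) complete the first 10. These intervals and floors cover counting error only.

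The 9 genes read in control inputs alone were mostly not protein-coding. COBL, an actin nucleator, had 66, 84 and 78 reads in control and 0, 0 and 0 in KO inputs, at least 67.7-fold lower. ABCC2, the efflux transporter MRP2, had 31, 29 and 22 reads against 0, 0 and 0, at least 24.4-fold lower. POTEC (69, 78 and 56 reads against 0) and the pseudogene CXADRP3 (38, 95 and 80 against 0) belong to families of near-identical copies, so that their reads are uncertain. They and LINC01444 (39, 74 and 53 reads against 2, 3 and 1) lie near each other on chromosome 18. The others were the microRNA genes MIR4787 and MIR4428, the T cell receptor constant segment TRBC1 and the pseudogene RPL38P4. All 28 genes had the same direction of change in the IPs, against 58.5% of all genes and 90.5% of called genes with a change of at least 2-fold. Choosing starts nearly absent from 1 genotype leaves little room for the opposite direction, so that this count adds no support. Of the 19, 10 start with A, and of the 9, 6 do, against 6961 of 15903 matched genes.

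Genes that are off in one cell line and on in another often have promoters rich in CG pairs, where methylation can silence them, so that the upstream bases of 3 genes read in KO inputs alone and 1 read in control inputs alone are shown. Each run is the 120 bases before the RefSeq start in GRCh38.p14, 5' to 3' on the gene's strand, with CG pairs in capitals.
PXDN (minus strand, chr2:1744516-1744635): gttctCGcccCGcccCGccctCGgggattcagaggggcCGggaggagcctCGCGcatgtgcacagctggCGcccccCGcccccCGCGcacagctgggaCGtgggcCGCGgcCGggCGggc
MGMT (plus strand, chr10:129467121-129467240): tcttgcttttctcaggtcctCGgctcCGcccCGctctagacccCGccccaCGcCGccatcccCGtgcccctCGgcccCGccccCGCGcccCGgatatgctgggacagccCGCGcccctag
SH3GL2 (plus strand, chr9:17578946-17579065): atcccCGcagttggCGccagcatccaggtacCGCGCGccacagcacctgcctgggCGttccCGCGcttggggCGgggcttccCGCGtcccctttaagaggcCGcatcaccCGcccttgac
ABCC2 (plus strand, chr10:99782520-99782639): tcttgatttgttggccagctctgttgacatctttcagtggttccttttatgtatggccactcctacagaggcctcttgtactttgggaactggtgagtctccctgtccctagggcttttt
CG is the only motif counted, and it reads the same on both strands. The 250 bases upstream of PXDN, MGMT and SH3GL2 hold 32, 36 and 25 CG pairs, and those of ABCC2 hold 1. Such counts are common: at least 15 CG pairs were found upstream of 9 of the 12 matched genes read in KO inputs alone (75%) and of 7865 of all 10541 matched genes (74.6%). Of the genes read in control inputs alone, 3 were matched and 1 of them had at least 15 (33.3%). Over the matched genes the counts ranged from 4 to 36 for KO inputs alone and from 0 to 30 for control inputs alone. The genes shown were not chosen by a rule and do not stand for their sets. DNA methylation was not measured.

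The genes were then read by function and cell state over 42 lists with 1143 different measured members. Of these, 68 were higher and 111 lower in KO inputs (15.7% called, against 11.2% of all genes). Among all genes 5.56% were higher and 5.67% lower, and list counts below are to be read against these. Listed genes are more abundant than the average gene, with a mean log2 CPM of 5.58 against 3.66.

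**Figure D3:**
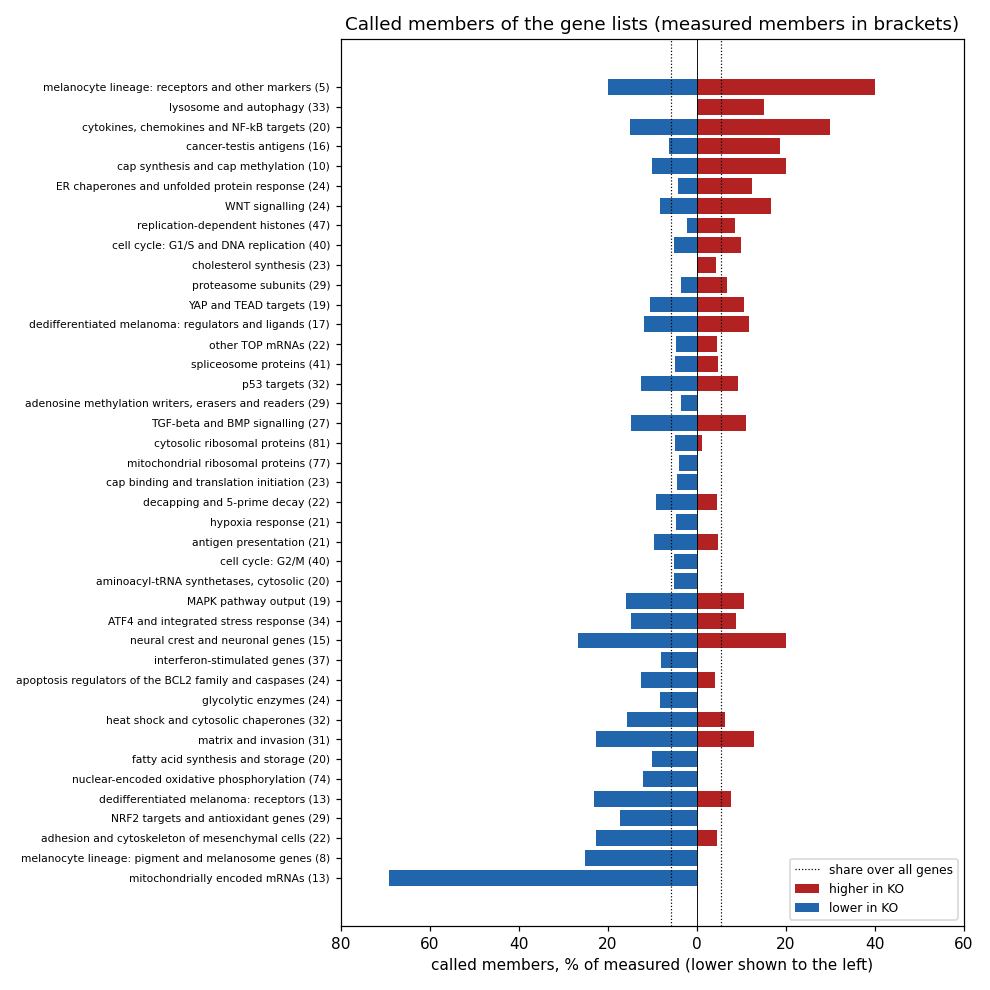
Share of the measured members of each gene list that were called higher (red, to the right) or lower (blue, to the left) in KO inputs, ordered by the higher minus the lower share, for lists with at least 5 measured members, with dotted lines at the shares over all genes (5.56% and 5.67%). Mitochondrially encoded mRNAs, with 9 of 13 lower and 0 higher, stand furthest from the dotted lines, and many lists have calls on both sides.

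Genes of melanoma cell state moved in both directions. Among 4 melanocyte transcription factors, PAX3 rose from 18.3, 20.2 and 14.7 CPM to 35.9, 39.9 and 28.0 CPM (0.96 ± 0.16) and TFAP2A fell from 9.21, 7.64 and 12.9 CPM to 4.95, 4.68 and 4.95 CPM (-0.996 ± 0.24). Among 8 pigment and melanosome genes, 0 were higher and 2 lower, GPNMB (-0.66 ± 0.14) and MLPH, which links melanosomes to myosin (-0.48 ± 0.12). Of 5 lineage receptors and other markers, MIA and the adhesion molecule gene MCAM (0.60 ± 0.15) rose and the neuregulin receptor gene ERBB3 fell (-1.82 ± 0.44). The ligand of that receptor, NRG1, rose by 0.54 ± 0.12, from 42.5, 42.9 and 44.1 CPM to 63.5, 56.4 and 69.3 CPM. Of 13 receptors of the dedifferentiated state, 1 was higher and 3 lower. ROR1, a receptor for WNT5A, rose from 2.23, 3.74 and 2.70 CPM to 7.25, 7.38 and 8.85 CPM, while the hepatocyte growth factor receptor gene MET (-0.37), the ectonucleotidase gene NT5E (-0.34) and PDGFRB (-0.75) fell. Of 17 regulators and ligands of that state, 2 rose, NRG1 and the AP-1 gene FOSL1 (0.40), and 2 fell, SOX9 (-0.85) and NES. NES, for the intermediate filament nestin, had 7, 5 and 5 reads in control and 0, 0 and 1 in KO inputs. AXL, chosen after its values were seen, gave 982, 958 and 869 CPM in control and 936, 920 and 841 CPM in KO inputs, and its change of -0.06 did not pass (adjusted p = 0.819). The level of this receptor, which marks the dedifferentiated state, was thus high in both genotypes and its libraries overlapped. Calls for TFAP2A, MLPH, MCAM, ERBB3, NRG1, MET, NT5E, PDGFRB, FOSL1, SOX9 and NES were lost in at least 1 alternative fit.

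Neural crest and neuronal genes had 3 higher and 4 lower of 15. ETS1, a transcription factor of the early neural crest, rose from 247, 237 and 255 CPM to 361, 335 and 391 CPM (0.56 ± 0.09). FOXD3, a stem cell factor of the neural crest, had 0, 2 and 1 reads in control and 6, 12 and 21 in KO inputs. SNAP25, a synaptic vesicle fusion protein, had 23, 32 and 18 reads in control and 3, 1 and 3 in KO inputs, and lies in a lowered stretch of chromosome 20 described below. Cancer-testis antigens had 3 higher and 1 lower of 16. PRAME (0.76 ± 0.17), PAGE5 (0.51 ± 0.13) and MAGEA3 (0.57 ± 0.15) rose and CSAG3 fell (-1.01 ± 0.32). MAGEA3 and CSAG3 have near-identical copies, which makes their reads uncertain. Calls for ETS1, PAGE5, MAGEA3 and CSAG3 were lost in at least 1 alternative fit.

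Extracellular matrix and invasion genes included 4 higher and 7 lower of 31. TGFBI fell, as described above, while BGN and TIMP3, a matrix-bound inhibitor of metalloproteinases, rose. TIMP3 gave 178, 193 and 173 CPM in control and 306, 276 and 275 CPM in KO inputs (0.66 ± 0.10). Among 22 adhesion and cytoskeleton genes of mesenchymal cells, 1 was higher and 5 lower. The tropomyosin genes moved apart, TPM1 from 170, 176 and 178 CPM up to 280, 264 and 304 CPM (0.69 ± 0.09) and TPM2 from 535, 552 and 531 CPM down to 428, 413 and 391.8 CPM (-0.39 ± 0.09). S100A4 and the laminin receptor gene ITGA6 (-0.45) fell. The calls of TPM2 and ITGA6 were lost with ribosomal protein centring.

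Signalling pathways showed calls on both sides at the level of ligands, inhibitors and targets. In the TGF-beta and BMP list, 3 were higher and 4 lower of 27. The ligand gene TGFB1 fell from 60.5, 56.4 and 55.5 CPM to 32.8, 22.5 and 27.4 CPM (-1.08 ± 0.16), and the activin subunit gene INHBE fell by 1.52 (log2). FST, for the secreted activin inhibitor follistatin, rose from 154, 152 and 168 CPM to 275, 255 and 289 CPM (0.79 ± 0.10). ID1, a direct target of BMP signalling, fell from 37.2, 37.9 and 38.9 CPM to 12.4, 11.2 and 16.3 CPM (-1.53 ± 0.18). In the WNT list, 4 were higher and 2 lower of 24. The inhibitor gene DKK3, the receptor gene FZD8 (0.87) and the scaffold gene AXIN1 (0.43) rose, and SFRP1, for a secreted WNT-binding protein, fell (-0.71). Of 19 MAPK output genes, 2 were higher and 3 lower: the phosphatase gene DUSP5 rose (0.52), whereas DUSP4 (-0.59), the feedback inhibitor gene SPRY2 (-0.57) and the ETS factor gene ETV1 (-1.04) fell. DUSP4 went from 240, 261 and 243 CPM to 177, 167 and 150 CPM. Among 19 YAP and TEAD targets, the classical targets ANKRD1 (0.78 ± 0.10) and CCN1 (0.66 ± 0.11) rose and NT5E and MYOF (-0.42) fell. CCN1, a secreted matricellular protein, gave 518, 485 and 597 CPM in control and 808, 835 and 878 CPM in KO inputs. AXIN1, FZD8, DUSP5 and MYOF lost the call in at least 1 alternative fit.

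Immune genes did not move as one. Cytokines, chemokines and NF-kB targets had 6 higher and 3 lower of 20. The neutrophil chemokine genes CXCL8 (1, 7 and 4 reads against 27, 29 and 23) and CXCL1 (3, 12 and 4 against 27, 34 and 34) rose, and so did TNFAIP2, from 167, 154 and 176 CPM to 263, 229 and 263 CPM (0.60 ± 0.10). IL1B fell from 21, 24 and 25 reads to 6, 2 and 0. Of 37 interferon-stimulated genes, 0 were higher and 3 lower: IFITM3, a restriction factor for virus entry (-0.55 ± 0.12), the RNA sensor gene OAS1 (-0.86 ± 0.22) and IFIT1, which binds RNA with an unmethylated cap (1, 5 and 4 reads against 0, 0 and 1). The share of 8.11% called is below the 11.2% of all genes. The median of the 37 was -0.24, with quartiles at -0.54 and -0.08, against a median of -0.02 over all genes. Their mean log2 CPM was 2.36 against 3.66 over all genes. Of 21 antigen presentation genes, CD74, the class II invariant chain, fell from 146, 132 and 118 CPM to 77.3, 73.4 and 47.2 CPM (-1.03 ± 0.17), HLA-C fell (-0.41) and HLA-B rose (0.39). HLA genes resemble each other and their reads are uncertain. TNFAIP2, IFITM3, OAS1, IFIT1, HLA-B and HLA-C lost the call in at least 1 alternative fit.

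Stress and damage responses were mixed as well. Targets of p53 had 3 higher and 4 lower of 32. CDKN1A, for the cyclin-dependent kinase inhibitor p21, fell from 121, 117 and 107 CPM to 51.1, 51.8 and 38.1 CPM (-1.30 ± 0.13, adjusted p = 2.03e-06). BTG2 (-1.14), the DNA repair gene DDB2 (-0.69) and RPS27L (-0.60) fell too. ATF4 and integrated stress response genes had 3 higher and 5 lower of 34. The pseudokinase gene TRIB3 fell from 95.5, 76.1 and 75.7 CPM to 50.001, 44.5 and 39.4 CPM, and the serine synthesis gene PSAT1 from 344, 305 and 321 CPM to 237, 237 and 201 CPM. DDIT3, for the transcription factor CHOP, rose (0.61 ± 0.12) and ATF5 fell (-0.82 ± 0.15). TRIB3 and ATF5 lie in lowered chromosome stretches, and without such genes the list has 3 higher and 3 lower of 29. Among 24 chaperones and unfolded protein response genes of the endoplasmic reticulum, 3 rose, SDF2L1 (0.56), HYOU1 (0.55) and HERPUD1 (0.32), and SEC24D fell (-0.68). Heat shock genes had 2 higher and 5 lower of 32. HSPB1, a small heat shock protein, fell from 441, 421 and 417 CPM to 306, 288 and 230 CPM and its partner BAG3 by 0.52 (log2). HSPD1 (0.58) and HSPE1 (0.50), the mitochondrial chaperonin pair with a shared start region, rose and lie in a raised stretch of chromosome 2. All 5 called NRF2 targets and antioxidant genes of 29 were lower: ABCC2, the aldose reductase gene AKR1B1 (-0.54), the cystine transporter gene SLC7A11 (-0.48) and AKR1C1 (6, 9 and 9 reads against 1, 3 and 3) were the first 4. Outside departing chromosome runs 3 of 26 were lower. SDF2L1, HYOU1, HERPUD1, HSPE1, AKR1B1, SLC7A11 and AKR1C1 lost the call in at least 1 alternative fit.

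Cell cycle genes had few calls outside the chromosome stretches described below. In the list for G1/S and DNA replication, 4 were higher and 2 lower of 40. TYMS, thymidylate synthase, fell from 665, 654 and 715 CPM to 357, 391.9 and 383 CPM (-0.85 ± 0.09), and PCNA, the sliding clamp of replication, from 185, 193 and 192 CPM to 113, 107 and 90.7 CPM (-0.89 ± 0.09). These 2 lie in the lowered stretches of chromosomes 18 and 20, and outside such stretches 4 were higher and 0 lower of 36. The helicase gene MCM4 (0.47) and the transcription factor gene E2F1 (0.54) rose. In the list for G2/M, 0 were higher and 2 lower of 40, NDC80 (-0.65) and CDC25B (-0.49), and both lie in the same stretches. Replication-dependent histones, whose mRNAs lack a poly(A) tail, had 4 higher and 1 lower of 47. The linker histone gene H1-2 rose from 136, 117 and 109 CPM to 319, 327 and 263 CPM (1.33 ± 0.12), and H2BC12 and H2AC6 each by 0.69, while H1-5 had 20, 22 and 13 reads in control and none in KO inputs. Histones took 0.157% ± 0.0209 of reads in control and 0.194% ± 0.0157 in KO inputs (SD, n = 3, exact permutation p = 0.2, two-sided, where 0.1 is the smallest p that 3 against 3 allows). MCM4, E2F1, H2BC12 and H2AC6 lost the call in at least 1 alternative fit.

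Mitochondrially encoded mRNAs were the list with the largest share of calls. Of 13, 9 were lower and 0 higher, with a median of -0.79 against -0.02 over all genes. MT-CO3, a cytochrome oxidase subunit, fell from 546, 617 and 746 CPM to 198, 288 and 238 CPM (-1.41 ± 0.16, adjusted p = 8.13e-06). MT-ATP6, of the ATP synthase, fell from 191, 249.3 and 275 CPM to 87.0, 139 and 120 CPM (-1.06 ± 0.18). The complex I genes MT-ND3 (191, 205 and 258 CPM against 94.8, 144 and 113) and MT-ND2 (15.7, 22.3 and 20.5 CPM against 5.24, 11.2 and 6.25) fell too. The 3 KO libraries lay below all 3 control libraries for each of these 4 genes. They were taken for the smallest adjusted p in the list, so that this gap was nearly fixed by the choice. Over all genes 31.7% had no overlap in either direction. Mitochondrial transcripts are cut from long precursors and lie end to end, so that reads at one start can come from its neighbour. They carry no such cap, so that these reads are not capped starts. The exonuclease digests fragments with a free 5' end, and the part of digestion in their lower counts was not tested. All mitochondrial genes together took 1.03%, 1.05% and 1.27% of reads in control and 0.608%, 0.830% and 0.743% in KO inputs. The difference of -0.393 percentage points had an exact permutation p of 0.1 (two-sided), the smallest possible here. In the IPs the median of the 13 went the other way (0.76).

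Nuclear genes of mitochondria moved less. Of 74 nuclear genes of oxidative phosphorylation, 0 were higher and 9 lower, with a median of -0.03. NDUFV2, a complex I subunit in the lowered stretch of chromosome 18, fell from 312, 311 and 290 CPM to 152, 182 and 175 CPM. NDUFA8 (-0.48), COX7B (-0.46) and UQCRB (-0.39) fell as well. Of 77 mitochondrial ribosomal proteins, 0 were higher and 3 lower (3.90%): MRPS26 (-0.54), MRPS28 (-0.52) and MRPL51 (-0.35). Glycolysis had 0 higher and 2 lower of 24, the lactate exporter gene SLC16A3, which fell from 10.6, 13.4 and 12.3 CPM to 5.81, 2.51 and 3.97 CPM, and the lactate dehydrogenase gene LDHA (-0.32). Of 21 hypoxia response genes CA9 alone was called. In cholesterol synthesis CYP51A1 (0.36) was the 1 called gene of 23, and in fatty acid synthesis and storage the regulator gene SREBF1 (-0.34) and the elongase gene ELOVL5 (-0.43) fell, of 20. UQCRB, COX7B, MRPL51, LDHA, CYP51A1, SREBF1 and ELOVL5 lost the call in at least 1 alternative fit.

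Lysosome and autophagy genes were called in 1 direction, with 5 higher and 0 lower of 33 and a median of 0.16. SQSTM1, the autophagy receptor p62, rose from 1158.8, 1222.4 and 1080.5 CPM to 1668, 1465 and 1483 CPM (0.41 ± 0.09). MAP1LC3B, whose product coats autophagosomes, rose from 89.0, 67.7 and 73.3 CPM to 106, 128 and 117 CPM (0.61 ± 0.11). The autophagy gene WIPI1 (0.56) and the lysosomal protease gene CTSZ (0.39) rose too, and the calls of SQSTM1, WIPI1 and CTSZ were lost with ribosomal protein centring. Among 24 apoptosis regulators, the BH3-only gene PMAIP1 rose from 224, 237 and 232 CPM to 317, 320 and 396 CPM, in a raised stretch of chromosome 18. The survival gene MCL1 (-0.40), BOK (-0.62) and CASP9 (-0.50) fell. Proteasome subunits had 2 higher and 1 lower of 29, with PSMD1 at 0.42, PSMA7 at 0.32 and PSMD12 at -0.28. PMAIP1, MCL1, BOK, CASP9 and the 3 proteasome genes lost the call in at least 1 alternative fit.

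Genes that make, bind or remove the cap were read because PCIF1 is one of them. Of 10 genes of cap synthesis and methylation, PCIF1 and the nuclear cap-binding gene NCBP3 (0.43) rose. RNMT, which methylates the cap guanosine, fell from 66.4, 63.8 and 72.2 CPM to 35.7, 36.3 and 35.2 CPM (-0.92 ± 0.10, adjusted p = 2.86e-06), and lies in the lowered stretch of chromosome 18. Of 23 genes of cap binding and translation initiation, the helicase gene EIF4A2 alone was called (-0.48). Of 22 genes of decapping and 5' decay, the deadenylase gene CNOT8 (-0.55) and the decapping cofactor gene DCP1A (-0.55) fell and LSM1 (0.50) rose. Among 29 writers, erasers and readers of N6-methyladenosine, the reader gene HNRNPC was the 1 called (-0.34, 3.45% of the list). The writer METTL3, chosen after its values were seen, gave 56.0, 61.5 and 50.9 CPM in control and 61.5, 48.8 and 55.3 CPM in KO inputs, a change of -0.03 (adjusted p = 0.927). NCBP3, EIF4A2, CNOT8, DCP1A, LSM1 and HNRNPC lost the call in at least 1 alternative fit.

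Translation and splicing genes were called below or near the share of all genes. Cytosolic ribosomal proteins, whose mRNAs carry 5' terminal oligopyrimidine (TOP) tracts, had 1 higher and 4 lower of 81 (6.17%), with a median of -0.03. RPL13 rose from 1977.5, 1832.5 and 1909 CPM to 2427, 2554 and 2187 CPM (0.32 ± 0.09), and RPL6 (-0.45), RPL9 (-0.88) and RPS25 (-0.53) fell. They took 8.56% ± 0.343 of reads in control and 8.54% ± 0.828 in KO inputs (SD, n = 3). Other TOP mRNAs had 1 higher and 1 lower of 22, EIF3B (0.43) and NAP1L1 (-0.44). Of 20 cytosolic aminoacyl-tRNA synthetases, QARS1 (-0.42) was called. Spliceosome proteins had 2 higher and 2 lower of 41: SNRPD1 (0.38) and LSM4 (0.40) rose, and SNRPB fell from 536, 452 and 494 CPM to 288, 355 and 280 CPM in the lowered stretch of chromosome 20. PRPF31 fell too (-0.66). RPL13, RPL9, RPS25, EIF3B, QARS1, SNRPD1, LSM4 and PRPF31 lost the call in at least 1 alternative fit.

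By class of RNA, 12047 protein-coding genes had 766 higher and 732 lower (12.4%), and 1987 long non-coding RNAs had 65 and 79 (7.25%). Over all genes 11.2% were called. Of 211 small nucleolar RNAs, 2 were higher and 19 lower (9.95%), with a median of -0.17. Of 459 microRNA genes, 11 were higher and 25 lower (7.84%), with a median of -0.16. For 208 of the snoRNAs and 450 of the microRNA genes another gene covers or adjoins the start, so that its reads can be counted with theirs. Of 474 processed pseudogenes, 5 were higher and 16 lower (4.43%). Of 51 small nuclear RNAs, 0 were called. As a share of reads, snoRNAs took 4.55% ± 0.352 in control and 4.32% ± 0.171 in KO inputs, and the libraries overlapped (exact permutation p = 0.5, two-sided).

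The genes were also read by first base. Among protein-coding genes, 5549 starting with A had 400 higher and 373 lower (13.9% called) and a median change of -0.02. Those starting with G (5061) had 298 and 265 (11.1%) and a median of 0.01, those with C (1366) had 65 and 91 (11.4%) and a median of 0.00, and 71 with T had 3 and 3. The median of A-starting genes minus that of all other protein-coding genes was -0.03, and between -0.01 and -0.02 when each KO library was set alone against the control mean. Genes with the base that PCIF1 can methylate were called in both directions in similar numbers.

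Some changes ran along chromosomes. When genes were read in runs of 25 neighbours, 42 of 625 runs had a median at least 0.25 away from 0, 23 raised and 19 lowered. They held 1050 genes, of which 262 were called (25%). Outside them 1536 of 14959 genes were called (10.3%), 753 higher and 783 lower. The runs were picked by these same changes, so that the higher share called inside them was largely fixed by that choice. Chromosome 18 stood out, with 116 of its 270 genes called (43.0%). On its short arm (158557 to 14225224 in hg38) 39 of 75 genes were lower and 3 higher, with a median of -0.75. USP14, a proteasome-bound deubiquitinase, fell there from 172, 153 and 156 CPM to 74.4, 70.4 and 82.3 CPM, the nuclear pore gene SEH1L from 271, 260 and 282 CPM to 116, 129 and 132 CPM, and CHMP1B, of the membrane-cutting ESCRT machinery, from 187, 184 and 184 CPM to 97.3, 93.2 and 78.0 CPM. On the long arm (46098296 to 75209139) 36 of 100 genes were higher and 1 lower, with a median of 0.46. The methyl-CpG binding gene MBD2 rose there from 131, 134 and 147 CPM to 236, 212 and 330 CPM, and CCBE1, needed for lymphatic growth, from 69.9, 73.4 and 63.4 CPM to 120, 122 and 145 CPM.

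On chromosome 20, 41 of 100 genes between 290750 and 18567432 were lower and 3 higher, with a median of -0.58. PCNA, the transcription factor gene SOX12 (-0.91) and the prion protein gene PRNP (-0.73) lie there. PCIF1 lies on the other arm of this chromosome, outside the lowered stretch. On chromosome 2, genes between 190880821 and 201780933 had 16 higher and 0 lower of 50 (median 0.52), with NABP1, a single-strand DNA binding protein, up from 64.3, 54.6 and 53.2 CPM to 118, 120 and 132 CPM. Those between 233566782 and 241356285 had 17 higher and 2 lower of 50 (median 0.42), with the centromere chaperone gene HJURP at 0.76 and the selenocysteine lyase gene SCLY at 0.92. Between them, from 206213371 to 215312059, 5 of 25 genes were lower and 0 higher (median -0.52), with the purine synthesis gene ATIC down from 96.3, 79.8 and 80.6 CPM to 32.2, 41.5 and 27.4 CPM. The IP medians had the same sign in all of these stretches. Shorter raised runs were found on chromosome 16 (641828 to 1475028, 10 higher and 0 lower of 25, with METRN at 0.65 and MSLN at 2.72) and chromosome 15 (20505462 to 25089923, 5 higher and 0 lower of 25), where the imprinted genes NDN and SNRPN (0.79) lie. DNA copy number was not measured, and its part in these changes was not tested.

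**Figure D4:**
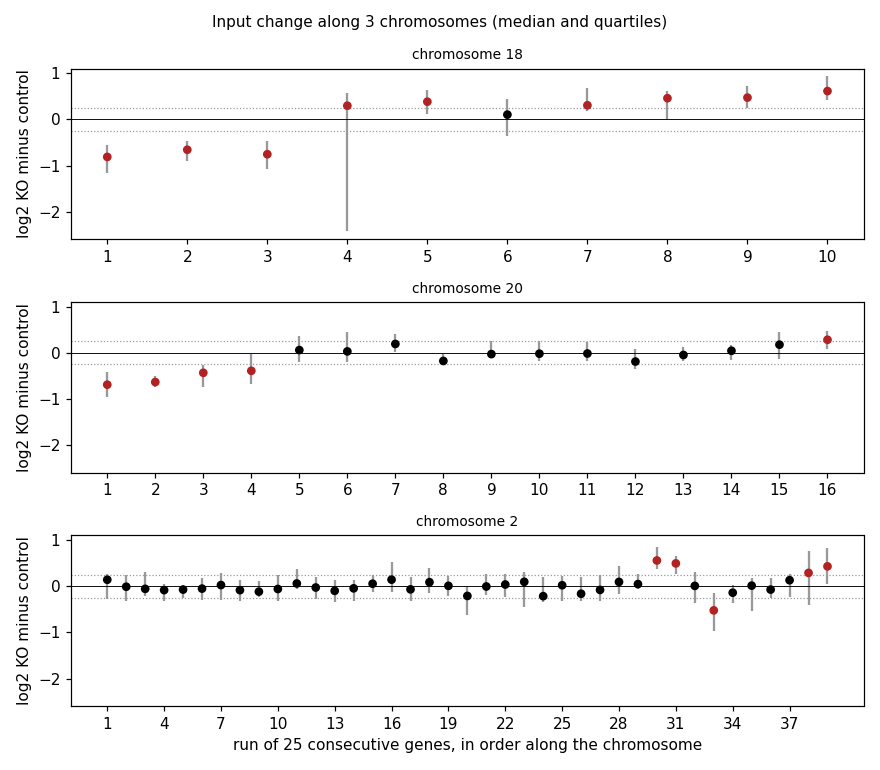
Median change (points) and quartiles (lines) of consecutive runs of 25 genes along chromosomes 18, 20 and 2, in order, with runs at least 0.25 from 0 in red and dotted lines at 0.25 above and below 0. The first 3 runs of chromosome 18 and the first 4 of chromosome 20 are lowered and the last 4 of chromosome 18 are raised.

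The IPs are separate libraries and share none with the inputs, and whether both came from the same RNA is not stated. Of the 1798 genes called in the inputs, 1372 had the same sign of change, KO minus control, in the IPs (76.3%, against 58.5% of all genes). For called genes with a change of at least 2-fold these were 570 of 630 (90.5%). Both comparisons called 1072 genes in the same direction, 59.6% of the input calls and 13.7% of the 7843 IP calls (49.0% of genes). HBE1 changed by 2.88 in the inputs and 4.62 in the IPs, MIR4527HG by 6.37 and 7.85, VGF by -1.87 and -2.65, and CA9 by -2.45 and -3.20. A further 229 genes were called in opposite directions in inputs and IPs. UQCRB (-0.39 in inputs and 1.62 in IPs) and MT-ND2 (-1.43 and 0.81) were among them.

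**Figure D5:**
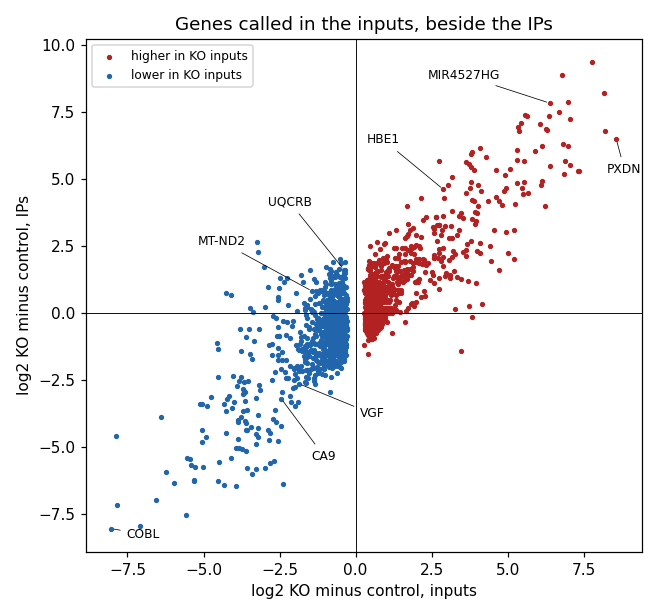
Change of the 1798 genes called in the inputs (x axis, log2 KO minus control) beside their change in the IPs (y axis, log2 KO minus control), with genes higher in KO inputs in red and lower in blue. Genes with large input changes lie mostly in the quadrants of equal sign, while genes with small input changes, such as UQCRB, spread on both sides of 0 in the IPs.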

How the data were processed

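The deposited table holds log2 CPM for start regions of 16009 genes in 12 libraries, per the file headers and labels. The tools named in the submitters' processing notes, with no role or order, are edgeR 3.12.1, R 3.3.3, featureCounts, SAMtools 1.7, HISAT2 2.0.4 and deepTools 3.0.2, and the build is hg38. The window around the start, the annotation, the use of strand and the gene filter were not stated. Values turned back into whole reads within 0.01 for 100% of entries with an added count of 0.25 scaled to library size, so that log2 changes of genes with few reads are understated. The 18 first-stage samples were not analysed here.

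Columns numbered 1 to 3 were assigned to groups only, since nothing ties the numbers to the labels' letters. All 12 libraries entered 1 limma fit (version 3.58.1, R 4.3.3) as 4 groups, without a replicate block and with the variance as a function of mean level, and p-values were Benjamini-Hochberg adjusted over all genes. The fit was tested on simulated data, in which no gene with few reads changed and the IPs were drawn from control input levels. That test does not cover genes with few reads or IPs that differ from inputs. Names, starts and classes come from GENCODE 44 (15903 genes matched) and upstream sequences from RefSeq. Members and lists were chosen with earlier results of these data known. Genes are named by rule: PCIF1, the 15 largest changes each way, up to 10 near-zero genes each way, up to 4 genes a list with the smallest adjusted p (or the 2 most abundant where none was called), and up to 3 a run. Alternatives covered scaling, added count, filters, samples in the fit, variance trend, block, overlapping starts and each library left out. Reads are not independent molecules, since no molecular identifiers are stated. 1 gene that this rule names is not reported here.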

Additional observations from a re-analysis of the deposited data

Results flagged for a closer look

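For 23 named genes the KO minus control change was called in opposite directions in inputs and IPs, and the difference between the changes (inputs minus IPs, log2) had a limma interaction adjusted p between 8.91e-09 and 0.00240. Choosing genes by opposite calls all but fixes the outcome of that test, which adds no support. It was positive, with starts higher in KO inputs and lower in KO IPs, for MCAM (1.52), TIMP3 (1.41), LSM4 (1.40), PMAIP1 (1.29), LSM1 (1.21), CYP51A1 (1.10), SQSTM1 (1.01), CLCN7 (1.005), E2F1 (0.93), NCBP3 (0.90), MCM4 (0.83), PSMA7 (0.78) and AXIN1 (0.74). It was negative, with starts lower in KO inputs and higher in KO IPs, for MT-ND2 (-2.25), UQCRB (-2.01), CSAG3 (-1.98), SNORD57 (-1.93), MT-ND3 (-1.66), MT-ATP6 (-1.53), MIR4751 (-1.28), EIF4A2 (-1.23), NAP1L1 (-0.94) and DUSP4 (-0.94). SNORD57 and MIR4751 overlap the genes NOP56 and ATF5, so that their reads are uncertain.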

How the results depend on the processing

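The 232 named genes that were called kept their direction in every fit that could be run, and 147 also kept the call in each of the 15 alternatives that tested them. Centring on ribosomal protein mRNAs ended the call for 64 of them, and leaving out control input 1, 2 or 3 or KO input 1, 2 or 3 ended it for 27, 39, 43, 28, 22 and 32. Centring on ribosomal protein mRNAs gave 1002 called genes (343 higher), 94 called list members, 797 protein-coding calls and 71 runs. Restricting to genes with isolated starts, which tests 7890 genes, gave 1115 calls (560 higher and 555 lower), 113 list members and 68 runs. Those runs kept their original bounds with fewer genes left in them, so that 68 cannot be set against the 42 full runs. A fit without trend gave 112 list members. Leaving out 1 input at a time gave 1177 to 1435 calls, 600 to 695 higher, 577 to 742 lower (577 without control input 3, 582 without control input 2), 992 to 1191 protein-coding calls and 120 to 155 list members. The median difference by first base ranged from -0.0303 to -0.0183 in the same fits, and was -0.0162 for genes with a mean log2 CPM of at least 3, -0.0358 for isolated starts and -0.0185 with starts from gene records. A minimum of 10 in place of 20 reads gave 43 starts read in KO and 29 in control inputs alone. KRT8 and MITF, which were not called, changed sign: KRT8 ranged from -0.1807 to 0.0166 (without KO input 3) and MITF from -0.1249 to 0.2592 in fits without 1 input, below 0 in 4 of them (-0.1249, -0.0987, -0.0326 and -0.0099), and MITF was -0.0659 with ribosomal protein centring. Without genes in departing runs 1536 calls were left (chosen after seeing the data).

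Numbers did not pair the columns: correlations of same-numbered control and KO inputs were 0.242, -0.101 and 0.215, and not every library correlated best with its own number. With the column number as a replicate block, 2216 genes were called, 1072 higher and 1144 lower. limma-voom on recovered reads, chosen after seeing the data, called 2481. The count tests planned on recovered reads, edgeR and DESeq2, were not run. How depth limits the detection of changes was not measured on these data.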

Other observations

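Gene families were read after their values had been seen, and they are given as counts with no test of the family. Of 437 ZNF genes, which mostly encode zinc finger transcription factors, 35 were higher and 3 lower in KO inputs. The share called was 8.7%, below the 11.2% of all genes, and the median was 0.12 against -0.02 over all genes. Of the ZNF genes, 217 lie on chromosome 19, with 19 higher and 1 lower (9.22%). A run of 25 genes there (20125044 to 23250394) had 6 higher and 0 lower and a median of 0.72, with ZNF486 (5, 13 and 11 reads in control and 29, 42 and 45 in KO inputs), ZNF43 (16, 19 and 24 against 58, 55 and 36) and ZNF98 (6, 5 and 6 against 20, 29 and 24). Clustered protocadherins, cell surface adhesion proteins with many alternative starts, had a median of 0.66 over 30 genes. Of them 3 were higher and 0 lower (10.0%), at a mean log2 CPM of only 0.13. Of 8 S100 genes, 3 were lower (S100A4, S100A3 and S100A16) and 0 higher (37.5% called). Of 23 HOX genes, 2 were lower and 0 higher (8.7% called).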
